A study of Mus musculus with 9 samples.

Results

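The TGF-beta and activin genes of a mouse mammary tumor model are described here: 3 TGF-beta ligand genes (*Tgfb1*, *Tgfb2* and *Tgfb3*), 2 activin subunit genes (*Inhba* and *Inhbb*), 3 receptor genes (*Tgfbr1*, *Tgfbr2* and *Tgfbr3*) and *Ltbp1*, which encodes a binding protein of latent TGF-beta. These 9 genes were chosen by their symbols among the 35275 genes of the count table, by no rule on their values. Earlier results of these data were known when they were chosen. RNA was sequenced from 9 mammary gland tumors of Brca1Co/Co;MMTV-Cre;p53+/- mice, 3 after saline, 3 after i.v. TLZ (free Talazoparib, an inhibitor of the DNA repair enzyme PARP) and 3 after NanoTLZ (the same drug in nanoparticles). Both treated groups were given 0.33 mg/kg per dose, and all groups had 5 doses at 3 per week, begun when the tumor was 4 to 5 mm in diameter. All groups, saline included, carried the conditional *Brca1* alleles, the Cre transgene and the heterozygous p53 mutation, so no comparison concerns the genotype. The MMTV promoter drives Cre mainly in mammary epithelium, so the stroma of these tumors is expected to keep *Brca1*. No tumor given empty nanoparticles was among the 9, and the effects of the drug and of its carrier cannot be told apart in the NanoTLZ group. The age of the mice was not given in the sources used here.

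TGF-beta is secreted in a latent complex that a latent TGF-beta binding protein tethers to the extracellular matrix. Once released, the ligand brings together the receptors encoded by *Tgfbr2* and *Tgfbr1*, often with the help of the co-receptor encoded by *Tgfbr3*, and the receptor complex phosphorylates SMAD proteins that enter the nucleus. Activins are dimers of the subunits encoded by *Inhba* and *Inhbb*, use other receptors and signal through the same SMAD proteins. In the mammary gland TGF-beta restrains the growth of epithelium, while in tumors it is also known for its actions on stroma, immune cells and invasion.

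Promoter windows from RefSeq on GRCm38.p6, which reach from 250 bases before to 50 bases after the annotated start, were at hand for 7 of the 9 genes. The activin subunit genes are shown because they code for related subunits and stood far apart both in level and in fold change, and *Smad6*, an inhibitor of the pathway, because its transcript set treated and saline tumors apart. The *Inhba* window lies at chr13:16011601-16011900 on the plus strand, the *Inhbb* window at chr1:119422199-119422498 on the minus strand and the *Smad6* window at chr9:64022010-64022309 on the minus strand. Capitals mark TATAAA in *Inhba*, the reverse complement of GGGCGG (a GC box) in *Inhbb* and the palindrome GTCTAGAC, which SMAD proteins can bind, in *Smad6*.
Inhba: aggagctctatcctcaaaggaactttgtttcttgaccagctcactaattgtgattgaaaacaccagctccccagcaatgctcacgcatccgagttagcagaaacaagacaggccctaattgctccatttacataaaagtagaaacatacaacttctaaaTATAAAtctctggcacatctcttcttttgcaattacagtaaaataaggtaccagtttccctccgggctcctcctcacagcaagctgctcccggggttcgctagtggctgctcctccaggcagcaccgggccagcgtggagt
Inhbb: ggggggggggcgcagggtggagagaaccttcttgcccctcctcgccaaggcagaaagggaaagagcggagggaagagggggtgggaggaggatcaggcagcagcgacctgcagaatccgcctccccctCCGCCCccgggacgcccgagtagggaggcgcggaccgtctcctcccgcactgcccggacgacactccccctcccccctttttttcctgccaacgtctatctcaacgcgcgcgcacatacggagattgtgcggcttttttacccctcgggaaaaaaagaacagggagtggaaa
Smad6: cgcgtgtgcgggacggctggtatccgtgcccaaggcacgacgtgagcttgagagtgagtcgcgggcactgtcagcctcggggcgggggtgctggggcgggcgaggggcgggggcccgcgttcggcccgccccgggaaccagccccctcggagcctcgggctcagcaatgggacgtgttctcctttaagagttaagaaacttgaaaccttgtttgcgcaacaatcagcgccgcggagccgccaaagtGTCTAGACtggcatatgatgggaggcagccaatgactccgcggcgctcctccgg
Both strands of each window were searched. TATAAA began at position -91 from the start of *Inhba* and was present in 13.6% of all 32851 windows. The GC box began at position -122 of *Inhbb* and was present in 35.7% of windows. The palindrome began at position -4 of *Smad6* and was present in 0.213% of windows. The *Smad6* window also held 4 GC boxes, left unmarked, and did not hold CAGAC, another SMAD motif. The windows at hand of the 9 genes did not hold the palindrome. These matches describe the letters of the windows and do not show that a factor was bound.

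Between 17538380 and 21194980 reads were counted on genes in each tumor, and each of the 9 genes had from 197 to 12256 counts in a tumor, so counting error was small beside the spread between tumors. Levels are given as CPM, which are counts relative to library sizes scaled by the TMM method, and between genes as CPM per kb of exon. The exon length is that of all annotated exons of a gene together, whichever transcripts the tumors used. Differences were tested with edgeR's quasi-likelihood test, adjusted by Benjamini-Hochberg over 15821 tested genes, and a gene was called at an adjusted p under 0.05. Saline tumor A3688 stood apart. It had the lowest value of 24.4% and the highest of 25.7% of tested genes. Its summed skeletal muscle markers were at 484 CPM, those of saline tumor A3685 at 145 CPM and those of A3673 at 22.1 CPM, with 3.17 to 31.6 CPM in the treated tumors. The epithelial markers that define the tissue were present in every tumor, with *Krt8* between 738 and 2623 CPM. They did not all vary alike. The basal marker *Krt5* was at 1849 CPM in A3688 and at 2.3 to 72.9 CPM in the other tumors. *Trp63* was at 131 CPM in A3688 and at 1.91 to 28.5 CPM in the others. The i.v. TLZ and NanoTLZ comparisons share the same saline tumors and are therefore not independent.

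The activin A subunit gene *Inhba* had the largest difference from saline of the 9 genes, with a fitted level 4.26-fold that of saline after i.v. TLZ and 2.79-fold after NanoTLZ. The other 8 genes had fitted folds between 0.732 (*Tgfb3* in NanoTLZ) and 1.5 (*Tgfb1* in i.v. TLZ), and all of their 95% intervals against saline included no change. None of the 9 was called in any comparison. In i.v. TLZ against saline edgeR called 0 of 9 (0% of all tested genes were called), in NanoTLZ against saline 0 of 9 (0.00632%), in NanoTLZ against i.v. TLZ 0 of 9 (0%) and in both treated groups against saline 0 of 9 (0.0190%). DESeq2 fitted to all 9 tumors also called 0 of 9 in these comparisons, in which it called 1.12%, 0.712%, 0.0119% and 1.53% of all genes. Fitted to the groups compared alone it again called 0 of 9, against 0.534%, 1.05% and 0.127% of all genes in the first 3 comparisons, and limma-voom called 0 of 9, with 0, 1, 0 and 1 of all 15821 tested genes called in the same order of comparisons. At an unadjusted p under 0.05, edgeR found 1 of the 9 genes, *Inhba*, which was higher in i.v. TLZ (4.91% of all tested genes were higher at this p), in NanoTLZ (3.51%) and in both groups together (4.80%). None of the 9 genes was lower at this p in a comparison with saline, where 5.47%, 5.49% and 8.29% of all tested genes were. Between the treatments, 0 of the 9 were higher (0.449% of all tested genes) and 0 lower (1.23%) in NanoTLZ at this p. Groups that did not overlap were found for *Inhba* in i.v. TLZ, above saline, and in 0 of the 9 genes otherwise. Over all tested genes, groups lay apart in 5.99% above and 5.20% below saline in i.v. TLZ, in 7.82% and 8.13% in NanoTLZ and in 2.81% and 2.66% in both groups together, and NanoTLZ lay apart from i.v. TLZ in 3.20% above and 4.41% below. The median log2 fold change of the 9 genes was -0.04 in i.v. TLZ, -0.02 in NanoTLZ and -0.08 in both groups together, close to the -0.03, -0.09 and -0.06 of all tested genes.

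**Figure D1:**
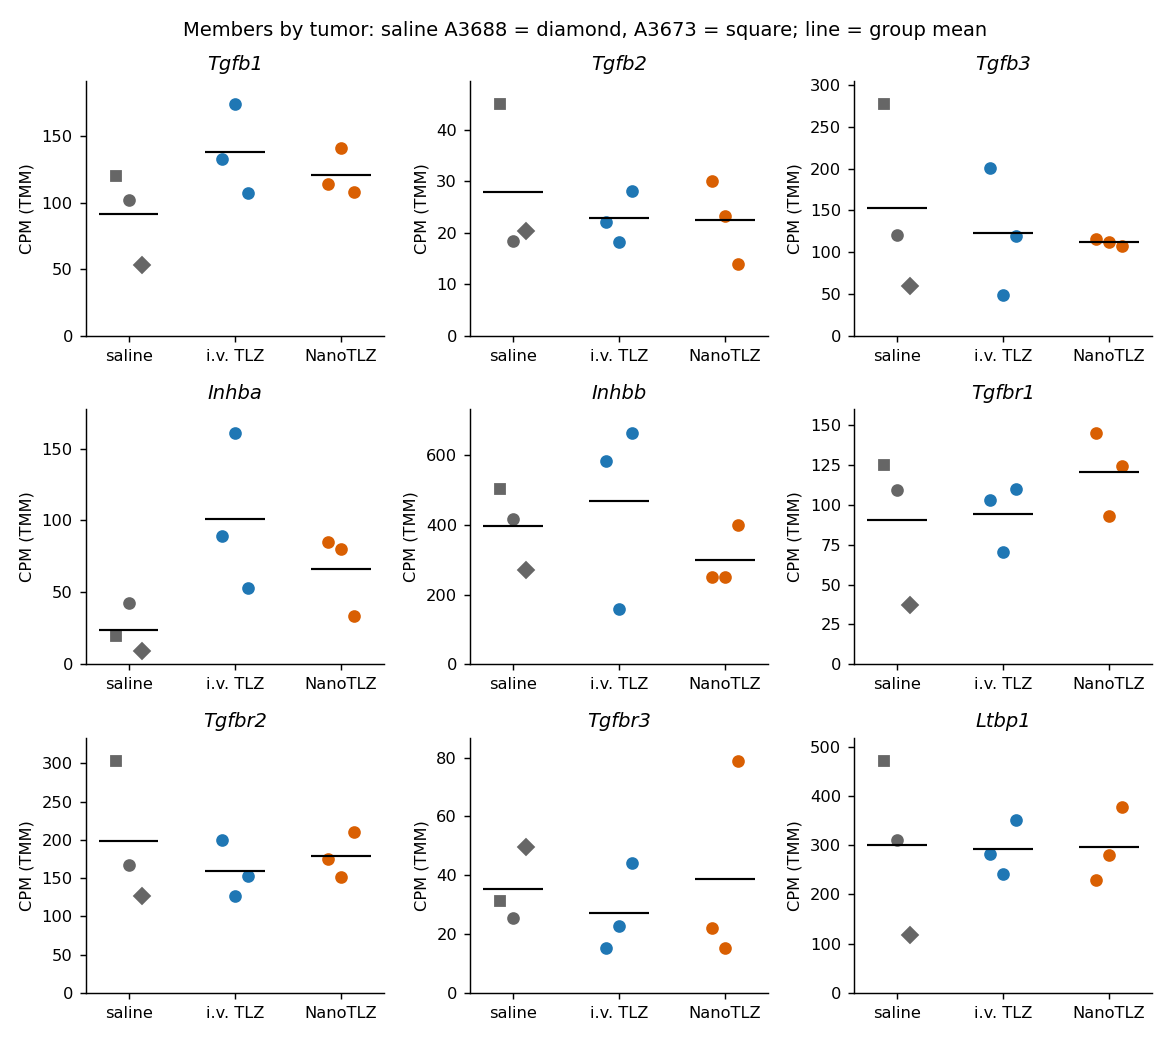
CPM of each gene in every tumor (y axis, linear from 0) by treatment group (x axis), with 3 tumors per group, the group mean as a line, and saline tumors A3688 as a diamond and A3673 as a square. *Inhba* is the gene in which all 3 i.v. TLZ tumors, at 52.9 to 161 CPM, sit above all saline tumors, and the square is the highest point of *Tgfb2*, *Tgfb3*, *Tgfbr2* and *Ltbp1*.

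*Inhba* encodes the beta A subunit, which forms activin A as a homodimer. It lies on chromosome 13 of GRCm38 from 16011851 to 16031621 on the plus strand. The saline tumors A3673, A3685 and A3688 had 19.6, 42.7 and 9.04 CPM, the i.v. TLZ tumors B3638, B3684 and B3700 had 89.5, 161 and 52.9 CPM, and the NanoTLZ tumors C3519, C3669 and C3698 had 85, 80.4 and 33.8 CPM. Every i.v. TLZ tumor was therefore above every saline tumor, while NanoTLZ tumor C3698 was below saline tumor A3685. Saline tumors averaged 23.8 ± 17.2 CPM (SD, n = 3), i.v. TLZ tumors 101 ± 55.2 and NanoTLZ tumors 66.4 ± 28.3. In i.v. TLZ the log2 fold change was 2.09 (standard error 0.62, 95% interval 0.72 to 3.46), or 4.26-fold, with an unadjusted edgeR p under 0.05 and an adjusted p of 0.417. In NanoTLZ it was 1.48 (standard error 0.61, 95% interval 0.13 to 2.83), or 2.79-fold, with an unadjusted edgeR p under 0.05 and an adjusted p of 0.552. Both 95% intervals against saline thus lay above 0 in a test of this gene alone, and neither difference passed adjustment over all genes. Set against i.v. TLZ, NanoTLZ had a log2 difference of -0.61 in *Inhba* (95% interval -1.93 to 0.72), so the interval left room for no difference as well as for a level far below that of i.v. TLZ.

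Over both treated groups together, the log2 fold change of *Inhba* was 1.79 (standard error 0.56, 95% interval 0.54 to 3.04, edgeR adjusted p = 0.284). The lowest adjusted p over all alternatives was 0.0582, from DESeq2 fitted to all 9 tumors. Part of the size came from the lowest saline tumor. Without A3688 the log2 fold changes were 1.71 in i.v. TLZ, 1.12 in NanoTLZ and 1.41 in both groups together. The unadjusted p stayed under 0.05 for i.v. TLZ and both groups together, and was above 0.05 for NanoTLZ. For NanoTLZ it was above 0.05 without A3673 as well, so this loss was not particular to A3688. Left out in turn, the other tumors gave log2 values for both groups together of up to 2.52, which was reached without A3685.

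*Inhbb* encodes the beta B subunit of activin B and lies on chromosome 1 from 119415465 to 119422248 on the minus strand. It had 501, 415 and 269 CPM in the saline tumors, 581, 160 and 663 CPM after i.v. TLZ and 249, 250 and 398 CPM after NanoTLZ, with the tumors in the order given for *Inhba*. The groups overlapped, and the widest spread was within i.v. TLZ, between B3684 and B3700. Its log2 fold change was 0.25 in i.v. TLZ (95% interval -0.85 to 1.34) and -0.40 in NanoTLZ (95% interval -1.50 to 0.70). NanoTLZ was below i.v. TLZ on the log2 scale, by -0.65 (standard error 0.50, 95% interval -1.75 to 0.46), with an unadjusted edgeR p above 0.05. With 1 tumor left out in turn, this value ran from -1.05 without B3684 to -0.28 without B3700. The unadjusted p was under 0.05 without B3684. In that fit 229 of 16203 tested genes were at this p, and 0 were called.

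Scaled by exon length, activin B subunit transcripts outnumbered activin A subunit transcripts in every tumor. In B3684 this order rests on the exon lengths, since *Inhba* was at 161 CPM and *Inhbb* at 160 CPM. Per kb of exon, *Inhba* made up 2.54%, 6.42% and 2.19% of the sum of the 2 subunit genes in the saline tumors. It made up 9.31%, 40.2% and 5.05% after i.v. TLZ and 18.5%, 17.7% and 5.35% after NanoTLZ. In 4 of the 6 treated tumors the share was above all saline tumors, and in B3700 and C3698 it lay within the saline range. The highest share was that of B3684, the tumor with the highest *Inhba* and the lowest *Inhbb*.

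**Figure D2:**
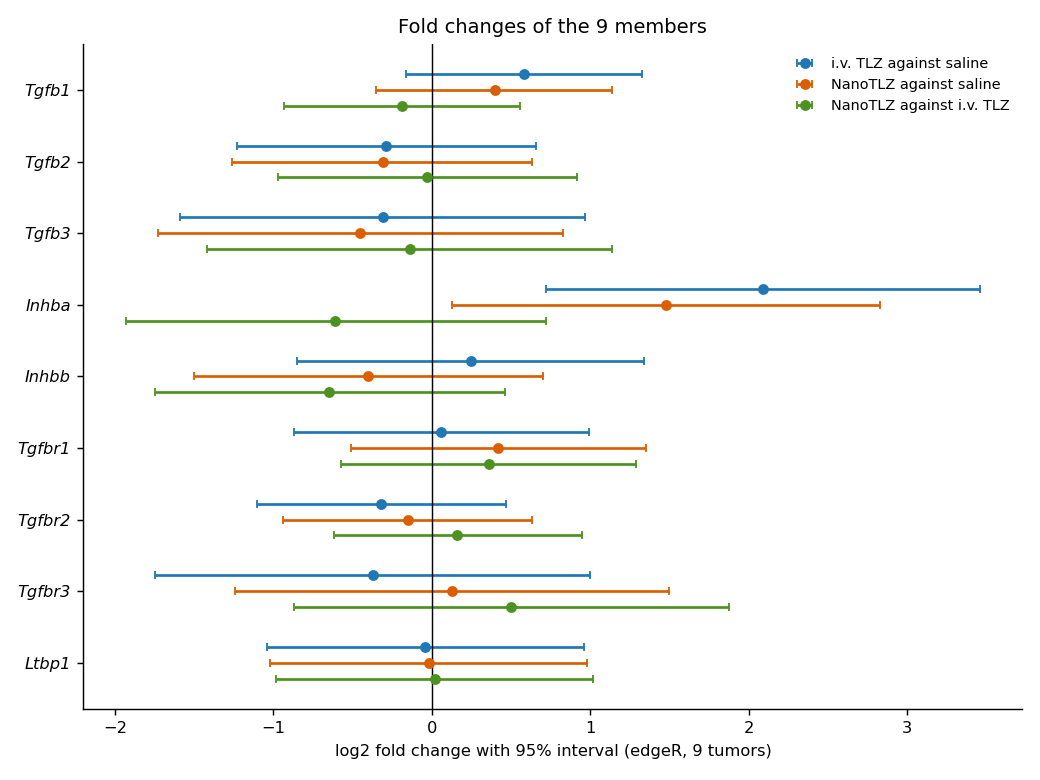
Log2 fold changes of the 9 genes (x axis) with 95% intervals from the edgeR fit to all 9 tumors, for i.v. TLZ against saline, NanoTLZ against saline and NanoTLZ against i.v. TLZ. The intervals of *Inhba* against saline, 0.72 to 3.46 and 0.13 to 2.83, lie above 0, and every other interval includes 0.

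Among the TGF-beta ligand genes, *Tgfb1* encodes the ligand best known for its actions on immune cells and fibrosis. It lies on chromosome 7 from 25687002 to 25705077 on the plus strand. It had 120, 102 and 53.5 CPM in the saline tumors, 133, 174 and 107 CPM after i.v. TLZ and 114, 141 and 108 CPM after NanoTLZ. The lowest value was that of A3688, and the groups overlapped through A3673. On the log2 scale the fold change was 0.58 in i.v. TLZ (standard error 0.34, 95% interval -0.16 to 1.33, edgeR adjusted p = 0.554) and 0.40 in NanoTLZ (standard error 0.33, 95% interval -0.35 to 1.14). The value in i.v. TLZ turned on which saline tumors were counted, at 0.32 without A3688 and 0.83 without A3673. Without A3673 the unadjusted p was under 0.05, as it was for 1695 of 16360 tested genes in that fit.

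*Tgfb2*, whose ligand depends most on the co-receptor for binding, lies on chromosome 1 from 186622792 to 186705989 on the minus strand. It had 45, 18.4 and 20.3 CPM in the saline tumors, 22.2, 18.2 and 28.1 CPM after i.v. TLZ and 30, 23.3 and 14 CPM after NanoTLZ. A3673 alone was above all treated tumors. The fitted log2 fold change was -0.29 in i.v. TLZ (95% interval -1.23 to 0.66) and -0.31 in NanoTLZ (95% interval -1.26 to 0.63), and without A3673 the signs turned, to 0.25 and 0.24. It shares 124 bases of exon with *Gm29491*, an antisense gene with 0 to 7 counts in a tumor.

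*Tgfb3*, which in the mammary gland is known from involution after lactation, lies on chromosome 12 from 86056745 to 86079041 on the minus strand. It had 277, 121 and 59.7 CPM in the saline tumors, 201, 49.5 and 119 CPM after i.v. TLZ and 116, 112 and 108 CPM after NanoTLZ. The NanoTLZ tumors differed by a factor of 1.08 from lowest to highest, while the saline tumors differed by a factor of 4.65 and the i.v. TLZ tumors by 4.06. Against saline, the log2 fold change was -0.31 in i.v. TLZ (95% interval -1.59 to 0.97) and -0.45 in NanoTLZ (95% interval -1.73 to 0.83), and without A3673 these were 0.45 and 0.33. Exons of *Tgfb3* overlap annotated genes on the other strand. Whether strand was used in counting was not given in the sources used here, so reads from such genes cannot be told apart from its own.

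Of the 3 ligand genes, *Tgfb3* had the largest share of transcripts per kb in 8 of the 9 tumors. Its share ran from 50.8% to 72.2% in those tumors. In the remaining tumor, B3684, *Tgfb3* made up 28% and *Tgfb1* 66%. *Tgfb2* made up 4.27% to 11% in all 9 tumors. The exon length was 5042 bases for *Tgfb1*, with 5 transcripts, and 3383 for *Tgfb3*, with 1. Without this scaling, *Tgfb1* was also the higher in C3669, at 141 against 112 CPM. It was level with *Tgfb3* at 108 CPM in C3698 and close to it in C3519, at 114 against 116. In the other tumors but B3684, *Tgfb3* remained the higher. The lead of *Tgfb3* therefore depends in part on the exon lengths.

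None of the receptor genes differed between groups by more than the spread between tumors. *Tgfbr1*, which encodes the type I receptor kinase that phosphorylates SMAD proteins, lies on chromosome 4 from 47353222 to 47414931 on the plus strand. It had 125, 109 and 37.3 CPM in the saline tumors, 103, 70.3 and 110 CPM after i.v. TLZ and 145, 93.1 and 124 CPM after NanoTLZ. Again A3688 was the lowest. Its log2 fold change was 0.06 in i.v. TLZ (95% interval -0.87 to 0.99) and 0.42 in NanoTLZ (95% interval -0.51 to 1.35), and without A3688 these were -0.30 and 0.08.

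*Tgfbr2* encodes the type II receptor kinase that binds the ligand first, and lies on chromosome 9 from 116084293 to 116175360 on the minus strand. It had 303, 167 and 127 CPM in the saline tumors, 200, 127 and 153 CPM after i.v. TLZ and 175, 151 and 211 CPM after NanoTLZ. Its highest tumor was A3673, and the other saline tumors lay within the range of the treated tumors. On the log2 scale the fold change was -0.32 in i.v. TLZ (95% interval -1.10 to 0.47) and -0.15 in NanoTLZ (95% interval -0.94 to 0.63), and without A3673 these were 0.13 and 0.31.

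*Tgfbr3*, which encodes the co-receptor betaglycan, lies on chromosome 5 from 107106570 to 107289629 on the minus strand. It had 31.2, 25.4 and 49.6 CPM in the saline tumors, 15.3, 22.7 and 44 CPM after i.v. TLZ and 22, 15.3 and 78.8 CPM after NanoTLZ. A single tumor, C3698, held the highest value and set the spread of its group. The fitted log2 fold change was -0.37 in i.v. TLZ (0.771-fold, 95% interval of the fold 0.298 to 2) and 0.13 in NanoTLZ (1.09-fold, 95% interval of the fold 0.422 to 2.83), and without C3698 the latter was -0.89. Exons of *Tgfbr3* share 297 bases with *Gm43422*, an annotated gene on the same strand without a row in the count table. Reads from these bases cannot be assigned to either gene.

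*Ltbp1* encodes the binding protein that holds latent TGF-beta in the matrix, and lies on chromosome 17 from 75005568 to 75392512 on the plus strand. It had 471, 311 and 118 CPM in the saline tumors, 283, 242 and 351 CPM after i.v. TLZ and 230, 281 and 377 CPM after NanoTLZ. The saline tumors held both the highest and the lowest value of all 9. Against saline, the log2 fold change was -0.04 in i.v. TLZ (95% interval -1.04 to 0.96) and -0.02 in NanoTLZ (95% interval -1.02 to 0.98). With 3 tumors in a group, true changes anywhere within these bounds remain compatible with the values. Both values took the direction of the saline tumor left out, at -0.41 and -0.37 without A3688 and at 0.45 and 0.49 without A3673.

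**Figure D3:**
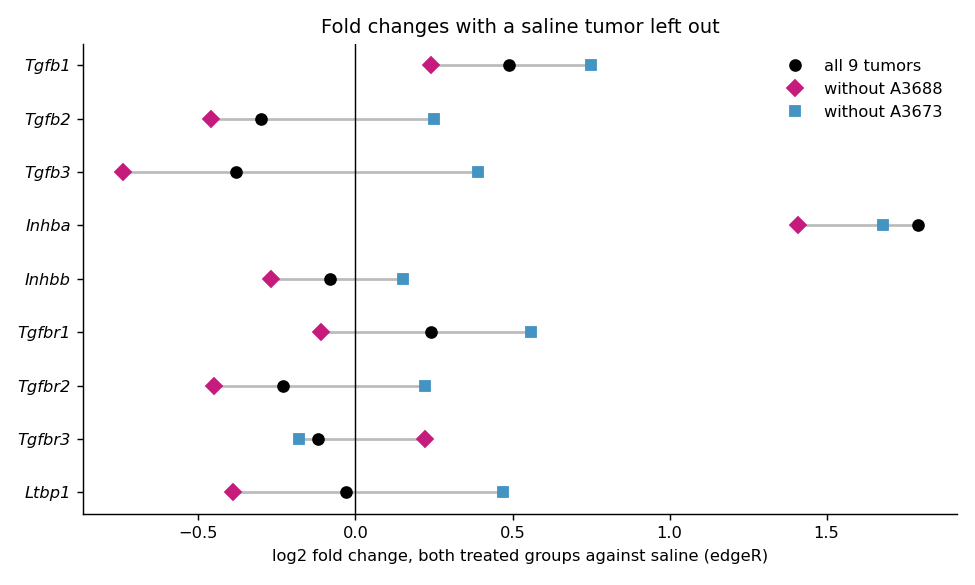
Log2 fold change of each gene in both treated groups against saline (x axis), from edgeR fits to all 9 tumors (circle), without saline tumor A3688 (diamond) and without saline tumor A3673 (square). *Inhba* stays between 1.41 and 1.79, while *Tgfb2*, *Tgfb3*, *Inhbb*, *Tgfbr2* and *Ltbp1* lie below 0 with all tumors and above 0 without A3673.

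Saline tumor A3673 was the highest of all 9 tumors in 4 of the 9 genes (*Tgfb2*, *Tgfb3*, *Tgfbr2* and *Ltbp1*), where 16.6% of all tested genes had their highest value in that tumor. A3688 was the lowest in 4 of the 9 (*Tgfb1*, *Inhba*, *Tgfbr1* and *Ltbp1*), against 24.4% of all tested genes. In i.v. TLZ, B3684 was the lowest tumor in *Tgfb3*, *Inhbb* and *Tgfbr2* and the highest in *Tgfb1* and *Inhba*.

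The 9 genes were also ordered by their level per kb of exon over all 9 tumors, an order that depends on the exon lengths used. *Inhbb* was the highest, with a mean of 91 ± 39.9 CPM per kb (SD, n = 9), and was above *Tgfb3*, at 38.2 ± 20.8, in 9 of 9 tumors. *Ltbp1* followed at 27.7 ± 9.34, *Tgfb1* at 23.2 ± 6.48 and *Tgfbr2* at 21.9 ± 6.67. The order of these neighbors was not stable, since *Tgfb3* was above *Ltbp1* in 7, *Ltbp1* above *Tgfb1* in 6 and *Tgfb1* above *Tgfbr2* in 5 of the 9 tumors. *Tgfbr1* was at 15.6 ± 4.93 CPM per kb, below *Tgfbr2* in 8 of 9 tumors, and *Inhba* at 9.99 ± 7.28, below *Tgfbr1* in 8 of 9. The lowest levels were those of *Tgfbr3*, at 5.17 ± 3.15, and *Tgfb2*, at 4.21 ± 1.59 CPM per kb, and *Tgfbr3* was the higher of this pair in 5 of 9 tumors.

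**Figure D4:**
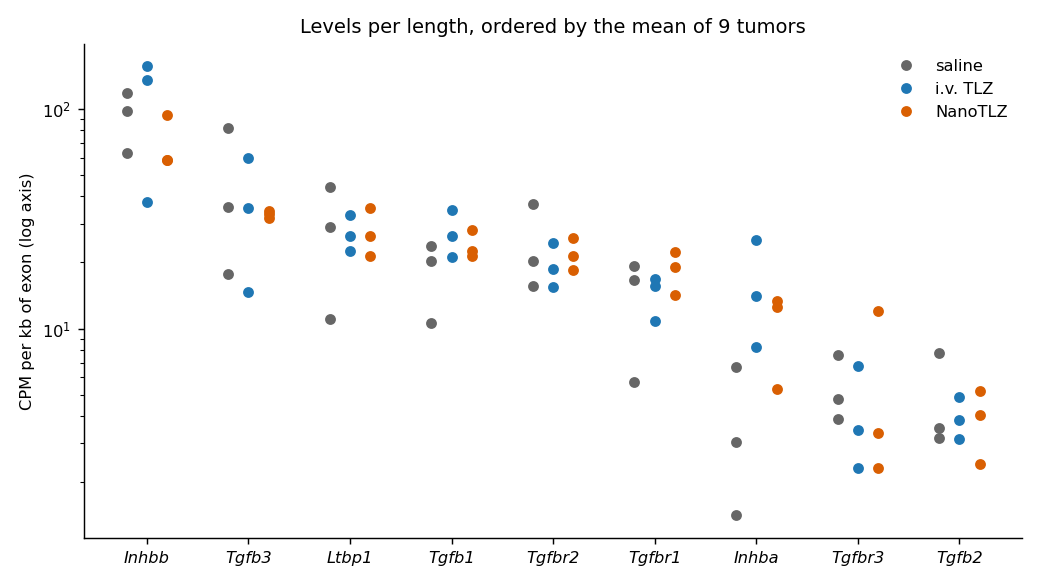
CPM per kb of exon (y axis, log axis) of the 9 genes, ordered by their mean over 9 tumors, with 1 point per tumor colored by group. *Inhbb*, with 37.6 to 156 CPM per kb, has the highest mean, and *Inhba* has the widest range on this axis, from 1.41 to 25.3.

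A further 49 genes of the pathway were examined in 5 lists, which were chosen with earlier results of these data known. Of these genes, 45 passed the filter on low counts. None was called by edgeR at an adjusted p under 0.05 in any comparison. In both treated groups against saline, 10 of the 45 were higher at an unadjusted p under 0.05 (4.80% of all tested genes) and 3 were lower (8.29%), and their median log2 fold change was 0.25, against -0.06 for all tested genes. In i.v. TLZ the counts were 8 higher (4.91% of all tested genes) and 2 lower (5.47%), in NanoTLZ 7 higher (3.51%) and 0 lower (5.49%). Without A3688, 5 were higher and 2 lower in both groups together, where 9.27% of all tested genes were at this p in either direction, and the median was 0.16, against 0.03 for all tested genes. Of the 10 higher genes, *Ltbp2*, *Smad6*, *Smad7* and *Ccn2* kept an unadjusted p under 0.05 without A3688 and the other 6 did not, and *Ltbp4* was added. None of the 3 lower genes kept it, and *Itgb8* and *Smurf2* were the lower genes then. DESeq2 fitted to all 9 tumors called 2 of the 45, *Ccn2* (adjusted p = 0.0158) and *Smad6* (adjusted p = 0.0195), where 1.53% of all genes were called. Treated and saline tumors did not overlap, with the treated higher, in 5 genes, *Lrrc32*, *Fstl3*, *Smad6*, *Smad7* and *Ccn2* (2.81% of all tested genes). The gap was narrow in *Lrrc32*, with 10.7 CPM in the highest saline and 11.1 CPM in the lowest treated tumor. In *Fstl3* both of these values round to 13.1 CPM.

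The SMAD list held 12 genes. At an unadjusted p under 0.05 in both treated groups, 2 were higher (4.80% of all tested genes) and 1 was lower (8.29%). *Smad6* encodes an inhibitory SMAD best known for restraining BMP signals. It had 7.78, 6.62 and 7.8 CPM in the saline tumors, 30.4, 13.2 and 32.5 CPM after i.v. TLZ and 12.8, 13.6 and 21 CPM after NanoTLZ. The saline tumors were close to each other and every treated tumor was above them, with a log2 fold change in both groups of 1.43 (standard error 0.37, edgeR adjusted p = 0.277).

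*Smad7* encodes the inhibitory SMAD that blocks the TGF-beta receptor and is itself induced by TGF-beta. It had 60.9, 109 and 43.5 CPM in the saline tumors, 219, 150 and 142 CPM after i.v. TLZ and 132, 126 and 122 CPM after NanoTLZ. No treated tumor was as low as the highest saline tumor, and the i.v. TLZ tumors were all above the NanoTLZ tumors. In both groups the log2 fold change was 1.05 (standard error 0.32, edgeR adjusted p = 0.284), and NanoTLZ differed from i.v. TLZ by -0.43 (standard error 0.35), which was not past an unadjusted p of 0.05. *Trim33*, which encodes a ubiquitin ligase of SMAD complexes, had a log2 value of -0.76 in both groups (edgeR adjusted p = 0.329).

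All 10 genes of the response list, which TGF-beta is known to induce in other cells, had a log2 fold change above 0 in both treated groups together. Of all 15821 tested genes, 7275 did. The median of the list was 0.72, and 3 of its genes were higher at an unadjusted p under 0.05 (4.80% of all tested genes). *Ccn2* encodes a matrix protein of connective tissue. It had 66.4, 74.1 and 25.4 CPM in the saline tumors, 292, 107 and 145 CPM after i.v. TLZ and 150, 181 and 236 CPM after NanoTLZ. No treated tumor overlapped the saline tumors, and the log2 fold change was 1.74 (standard error 0.44, edgeR adjusted p = 0.277). *Cdkn2b*, which encodes the cell cycle inhibitor p15, had a log2 value of 1.30 (edgeR adjusted p = 0.319). Without A3688 the value of *Ccn2* was 1.42 and that of *Cdkn2b* 0.99, and of this pair *Ccn2* kept an unadjusted p under 0.05. With that tumor left out, *Tgfbi* and *Postn* of the response list had values below 0, at -0.14 and -0.04.

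**Figure D5:**
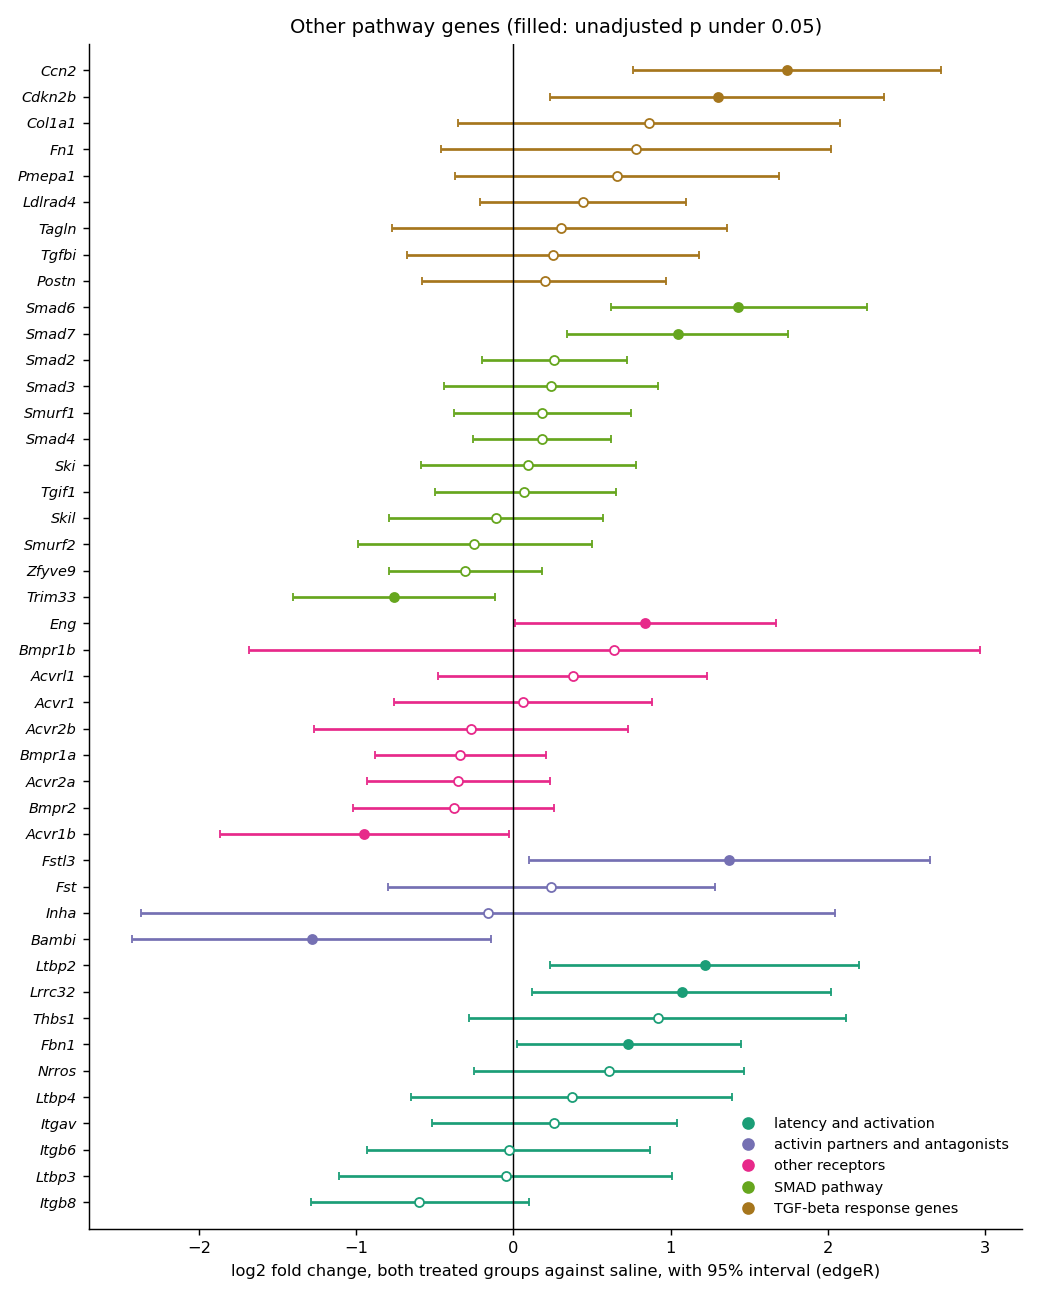
Log2 fold change in both treated groups against saline (x axis), with 95% intervals from edgeR, of the tested pathway genes outside the 9, with 1 of the 45 not shown, colored by list, with filled points at an unadjusted p under 0.05. All points of the response list lie above 0, and *Ccn2*, at 1.74, is the highest.

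In the list of latency and activation, 3 of 10 genes were higher at an unadjusted p under 0.05 (4.80% of all tested genes). *Ltbp2*, a matrix relative of *Ltbp1* that does not bind latent TGF-beta, had a log2 fold change of 1.22 in both groups (edgeR adjusted p = 0.314). *Lrrc32*, which encodes the anchor of latent TGF-beta on cell surfaces, had 1.07 (adjusted p = 0.347) and *Fbn1*, which encodes the microfibril protein fibrillin, 0.73 (adjusted p = 0.371). Of the activin partners and antagonists, 4 of 7 genes were tested. *Fstl3*, which encodes a secreted protein that traps activin, had 7.04, 13.1 and 4.59 CPM in the saline tumors, 13.3, 61.6 and 13.7 CPM after i.v. TLZ and 18.5, 14.6 and 13.1 CPM after NanoTLZ. Its log2 fold change was 1.37 (edgeR adjusted p = 0.359), although 4 of the 6 treated tumors lay below 15 CPM and close to saline tumor A3685. *Bambi*, which encodes a decoy receptor without a kinase, had -1.28 (adjusted p = 0.35). Of the other receptors, 9 of 10 were tested. *Acvr1b*, which encodes the type I receptor of activin, had -0.95 (edgeR adjusted p = 0.371), and *Eng*, which encodes the endothelial co-receptor endoglin, 0.84 (adjusted p = 0.376).

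In whole tumors, fewer cells of a type and less RNA per cell cannot be told apart. The sums of several marker lists differed between saline and treated tumors, with overlap in most lists. The 6 cartilage markers summed to 32.6 to 250 CPM in saline, 254 to 552 after i.v. TLZ and 530 to 1141 after NanoTLZ, with *Matn1* at or under 3 counts in every tumor. Of the 4 cartilage markers tested, edgeR called 1 as higher in NanoTLZ (0.00632% of all tested genes were called). It called 1 as higher in both groups together (0.0190%) and 0 in i.v. TLZ (0%). *Col2a1* was the highest of them over all tumors together, but in saline tumors A3673 and A3685 *Col9a1* was higher, with 212 and 86 CPM against 9.38 and 14.2 CPM of *Col2a1*. The 8 macrophage markers summed to 409 to 1670 CPM in saline, 801 to 1590 after i.v. TLZ and 1532 to 2089 after NanoTLZ. The 8 fibroblast markers summed to 762 to 1048, 543 to 2978 and 949 to 1647 CPM in the same order of groups, and the 8 endothelial markers to 80.2 to 207, 104 to 234 and 198 to 264 CPM. The 8 epithelial markers summed to 4085 to 7788, 4912 to 5693 and 3482 to 5099 CPM. The 7 pericyte markers summed to 349 to 660, 333 to 465 and 385 to 434 CPM, the 5 platelet markers to 19.2 to 23.8, 33.3 to 44.3 and 15.3 to 30.3 CPM, and the 6 T cell markers to 5.26 to 11.2, 2.73 to 22.4 and 14.9 to 29.4 CPM. The 6 skeletal muscle markers summed to 22.1 to 484 CPM in saline, 3.17 to 31.6 after i.v. TLZ and 8.24 to 16.1 after NanoTLZ. In both treated groups together 5 of these 6 were lower at an unadjusted p under 0.05 (8.29% of all tested genes), with a median log2 fold change of -5.82. By edgeR 0 were called at an adjusted p under 0.05. In sum, saline tumor A3673, at 22.1 CPM, lay within the range of the treated tumors, while A3688 was at 484 and A3685 at 145 CPM. The 5 adipocyte markers stayed at or under 12.7 CPM in sum. The part of these cells in the values of *Inhba*, *Ccn2*, *Smad6* and *Smad7* was not tested.

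The genes outside the pathway lists whose log2 CPM followed each gene most closely over the 9 tumors are given as a description, since tumors share group and depth and many genes were searched. *Inhba* was most like *3300005D01Rik* (Pearson's r = 0.962, n = 9 tumors) and *Eepd1* (r = 0.962), and *Inhbb* most like *Sectm1b* (r = 0.978) and *Ostm1* (r = 0.942). *Tgfb1* was close to *Fzd4* (r = 0.960), *Tgfb2* was most like *Ube2e1* (r = 0.956) and *Gtf2a1* (r = 0.936), and *Tgfb3* like *Apln* (r = 0.950) and *Ltf* (r = 0.947). The iron-binding milk protein gene *Ltf* ran from 11.9 to 5835 CPM between tumors. *Tgfbr1* was most like *Trp53i11* (r = 0.980) and *Pfkfb3* (r = 0.978), *Tgfbr2* like *Atp6v1a* (r = 0.960) and *Ddx39* (r = 0.951), *Tgfbr3* like *Hyou1* (r = 0.948) and *Krit1* (r = 0.923), and *Ltbp1* like *Ell* (r = 0.962) and *Stom* (r = 0.962).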

How the data were processed

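Per gene and tumor, the values deposited by the authors are raw counts of reads without normalization. The submitters' processing notes name TopHat2, DESeq2 and mm10. The counting program, annotation and strand setting are not given in the sources used here. Of 35275 Ensembl identifiers, 34490 were matched to GENCODE M21 (GRCm38) for symbols, positions and exon lengths.

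Genes were kept by filterByExpr (minimum count 10, minimum total 15), scaled by TMM and fitted with 1 coefficient per group to all 9 tumors by the quasi-likelihood method of edgeR 4.0.16 under R 4.3.3. Benjamini-Hochberg adjustment covered all 15821 tested genes. The standard error was the log2 fold change divided by the square root of F. The biological coefficient of variation was 49.8%. The scripts were tested on simulated data. Alternatives were DESeq2 1.42.0, limma-voom (limma 3.58.1), other normalizations, filters and dispersions, edgeR on the groups compared, and each tumor left out. Log2 CPM for likeness used a prior count of 2. Figures used matplotlib 3.10.9.

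The genes named were the 9, in each pathway list up to 3 genes with the smallest unadjusted p under 0.05 in both treated groups against saline, the 2 genes outside the lists most like each of the 9, and the highest or undetected markers. Some genes that this rule names are not reported here. Other genes named were chosen after their values were seen. The 9 genes and all lists were chosen with earlier results of these data known. Tumors were grouped by their labels. The study describes 3 mice per group, so each tumor was taken as coming from its own mouse.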

Additional observations from a re-analysis of the deposited data

How the results depend on the processing

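No paired analysis was possible because the labels give no replicate numbers that tie tumors of different groups. Over 18 alternative settings, 0 of the 9 genes were called in any comparison. The lowest adjusted p was 0.0636 in i.v. TLZ, 0.205 in NanoTLZ, 0.999 in NanoTLZ against i.v. TLZ and 0.0582 in both groups together. The sign was kept in 150 of 162 values in i.v. TLZ, 148 of 162 in NanoTLZ, 153 of 162 between the treatments and 127 of 144 in both groups together. Genes whose sign changed had log2 fold changes of at most 0.50 in size, and *Inhba* was not among them in any comparison. With 1 tumor left out in turn, the log2 fold change of *Inhba* ranged from 1.58 to 2.82 in i.v. TLZ and from 1.12 to 2.21 in NanoTLZ. Of the other pathway genes, edgeR called 0 in both groups together and the DESeq2 fit to all 9 tumors called 2 (*Ccn2* and *Smad6*). The cause was not tested. Over all genes, edgeR called 0 in i.v. TLZ, 1 in NanoTLZ and 3 in both groups together, while the DESeq2 fit to every tumor called 194, 110 and 273, and 3 between the treatments, where edgeR called 0. DESeq2 fitted to the groups compared called 92 in i.v. TLZ, 171 in NanoTLZ and 21 between the treatments, and edgeR without a filter on low counts called 5, 6 and 33 in i.v. TLZ, NanoTLZ and both groups together. With 1 tumor left out, edgeR called from 0 to 3 in NanoTLZ and from 0 to 18 in both groups together, the highest without A3673. Fits to the groups compared alone were not run for both groups together, since all 9 tumors enter that comparison. With 3 tumors per group, the width of the 95% intervals, not the read depth, limits what these genes can show.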

Other observations

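Patterns in the position of the genes most like each of the 9 were seen in the data and are given as values. Of the 20 genes whose log2 CPM was most correlated with *Tgfbr3* over the 9 tumors, 9 (45%) were on its own chromosome, which holds 6.14% of all tested genes. The 9 genes, among them *Krit1*, *Gatad1*, *Akap9* and the cell cycle kinase gene *Cdk6*, all lie between 3341485 and 5420312 of chromosome 5 (GRCm38), far from *Tgfbr3* at 107106570. In NanoTLZ tumor C3698, which had the highest *Tgfbr3* of all tumors, *Cdk6* was at 143 CPM, with 20 to 65.5 CPM in the other 8 tumors. Of the 15 tested genes within that stretch, 12 had their highest value in C3698, with a median of 1.43 on the log2 scale above the median of the 9 tumors, while 7.42% of all tested genes were highest in that tumor. This count was largely fixed by the choice of genes, since 9 of the 15 were picked for following *Tgfbr3*, which was itself highest there. Of the 34 tested genes within 2 Mb of *Tgfbr3* itself, 6 had their highest value in C3698, with a median of -0.07.

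For *Tgfb1*, 7 of the 20 most correlated genes (35%) were on chromosome 7, which holds 7.53% of all tested genes, and for *Inhbb*, 5 of 20 (25%) were on chromosome 1, with 5.95%. For the other 6 genes the count was from 0 to 2 of 20. Saline tumor A3688 had the highest value in 426 of the 972 tested genes of chromosome 5, where 25.7% of all tested genes were highest in that tumor.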
